A study of Mus musculus with 14 samples.

Results

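Peaks of open chromatin were described at 6 genes of blood clotting and of plasmin formation: F3, Tfpi, Thbs1, Plau, Plat and Plaur. All peaks from 50 kb before to 50 kb after each gene body were taken from 7 peak lists, and overlapping peaks were merged into regions. This gave 84 of the 108795 regions that the 7 lists formed together: 10 at F3, 19 at Tfpi, 10 at Thbs1, 19 at Plau, 13 at Plat and 13 at Plaur. The 6 genes were chosen from measured values, since the presence and height of peaks near them in these lists were known when the list was drawn up. Presence and height are therefore given as descriptions, with no test.

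Bulk ATAC-seq, in which a transposase cuts and tags accessible DNA, was done on 4T1 cells, a mouse mammary tumor line. Cells were fixed before the transposase was added. The 14 samples formed 7 groups of 2: a normoxic culture, and cultures held at 1% oxygen for 6, 12, 24, 36, 48 or 72 h, with no other treatment or genetic change named. Each list was called on the merged reads of a group, so no value has a replicate error and no difference can be set against the spread between replicates. The labels give no oxygen level for the normoxic culture, and the protocol text attached to it is that of the hypoxic cultures. For control cultures of its flow cytometry the study names an oxygen level below that of air, so normoxia stands here for the untreated group and not for air. The design text speaks of single cells, while the labels of all 14 samples name bulk libraries. In such libraries, fewer cells with an open site and less access per cell cannot be told apart.

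Clotting starts when tissue factor, the product of F3, meets factor VII of the plasma, and the Tfpi product blocks that complex. Clots are dissolved by plasmin, which the activators urokinase (Plau) and tissue plasminogen activator (Plat) cut from plasminogen, urokinase acting at the cell surface on its receptor (Plaur). Thrombospondin (Thbs1) is a matrix protein released by platelets and many tumor cells. Tumor cells often expose tissue factor, and the urokinase system is known for its part in the breakdown of matrix during invasion.

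The height of a peak is column 7 of the lists, the fold of reads at the summit over the local background of the same list, and its strength is the -log10 q against that background. The number of reads at each summit was recovered from the deposited values. The lists differed in background, from 0.926 reads in normoxia to 3.25 at 6 h. The smallest number of summit reads that was called was 5 in normoxia, 11 at 6 h and 7 to 9 at the other times. Heights were therefore compared between lists after division by the median of each list over the 36113 regions with a peak in all 7 lists, here called the scaled height. Reads were brought to the depth of normoxia, or depth-scaled, by the median summit reads of each list over the same regions. These medians were 26 in normoxia and 31 to 52 in hypoxia, and they mix sequencing depth with enrichment. Scaling by the background of each list would give lower values in every hypoxia list. The promoters of all 7 epithelial marker genes had a peak in all 7 lists, against 1 of 6 immune, 1 of 7 endothelial and platelet, 2 of 4 fibroblast and 0 of 3 liver markers.

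Promoter chromatin was open in every list at 5 of the 6 genes, as at 46.6% of all protein-coding genes, and at 3 of the 6 among the 20000 strongest peaks of each list. The 2 regions with mean heights over 1.5-fold above normoxia both lay near Tfpi. Of the 84 regions, 38 had a peak in all 7 lists, a share of 45.2% (exact 95% interval 34.3 to 56.5, counting error only, as for every interval below), against 33.2% of all regions. At Tfpi this held for 3 of 19 regions. At the other genes it held for 5 of 10 (F3), 5 of 10 (Thbs1), 10 of 19 (Plau), 7 of 13 (Plat) and 8 of 13 (Plaur), together 35 of 65. No region was open in each of the 6 hypoxia lists while absent from normoxia, against 1.5% of all regions, and none was seen in normoxia alone, against 2.75%. A count of 0 of 84 has an exact upper limit of 4.30%. Another 24 regions had a peak in 1 or 2 lists, and in 19 of these the highest -log10 q was under 5. No share of all regions is given for this count. Regions with a peak in 1 list alone numbered 0, 0, 5, 3, 2, 2 and 1 in the windows, from normoxia to 72 h. Over all 108795 regions they numbered 2987, 1478, 8579, 4370, 2993, 4471 and 4099. The map of peaks by distance shows each region in each list.

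**Figure D1:**
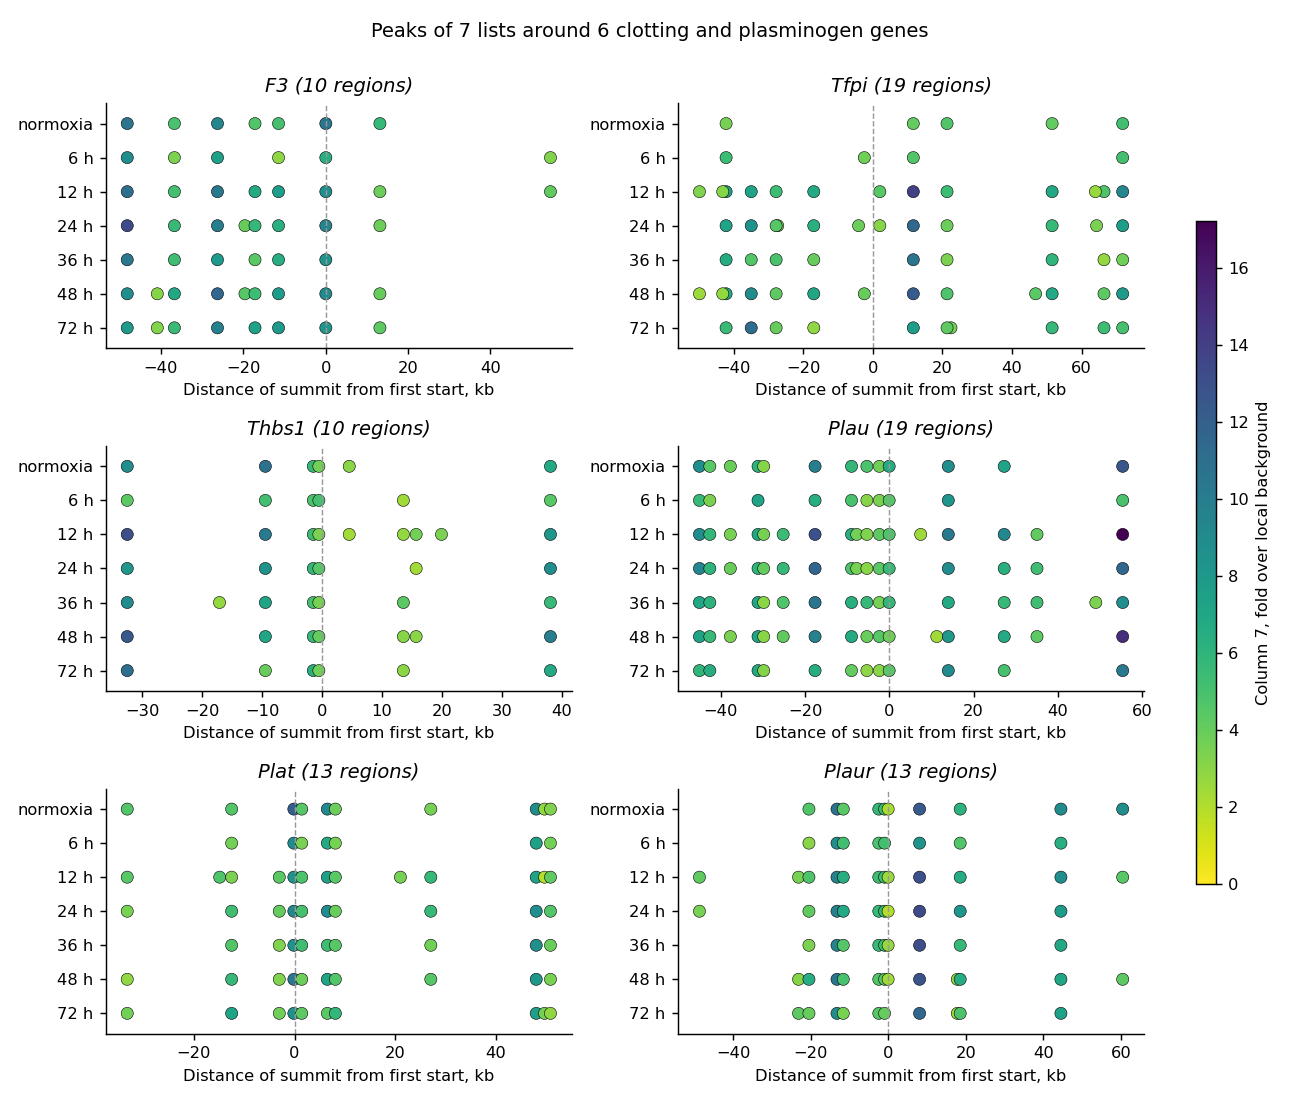
Peaks around the 6 genes by distance of the summit from the first annotated start (x axis, kb, positive in the direction of transcription) and by list (y axis). Colour gives the height (column 7, fold over local background). F3, Thbs1, Plau, Plat and Plaur have a peak within 1 kb of a start in every list, while Tfpi has 5 regions in normoxia and 13 at 12 h.

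Tfpi encodes tissue factor pathway inhibitor and lies on chromosome 2 (mm9, 84273012 to 84316932, minus strand). It had the fewest peaks in normoxia relative to its number of regions, with 5 of its 19 regions called there and 4 at 6 h. At 12, 24, 36, 48 and 72 h the number called was 13, 12, 9, 13 and 10. From 6 to 72 h, the regions without a normoxia peak made up 1 of 4, 8 of 13, 7 of 12, 4 of 9, 8 of 13 and 5 of 10. Over all regions the same share was 13.7, 34.3, 28.5, 23.7, 30.3 and 27.6% in that order, and in the other 5 windows together it was 5.41, 22.0, 14, 13, 18.5 and 10.9%. No normoxia region of Tfpi was missing in a list from 12 to 72 h. Of the 19 regions, 6 had a peak in 1 list only, and the counts of such regions over the whole genome are given above. The Tfpi window held 11 regions at a -log10 q of 5 or more and 2 among the 20000 strongest peaks of each list.

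The strongest of its regions lay in an intron of Tfpi, 11.6 kb after the first start (chr2:84304827-84305702). Its height was 4.15 in normoxia and 4.70 at 6 h, and from 12 to 72 h it was 13.99, 11.5, 10.6, 12.3 and 7.68. The normoxia and 6 h lists were low, and all 5 later lists were higher than both. The reads at the summit numbered 7, 19, 53, 40, 33, 55 and 34. The 7 normoxia reads have an exact Poisson interval of 2.81 to 14.4. The depth-scaled ratio of reads to normoxia was 2.28 (0.92 to 6.41) at 6 h. From 12 to 72 h it ran from 3.61 (1.57 to 9.66) at 36 h to 4.44 (2.02 to 11.6) at 48 h. The mean scaled height over the 6 hypoxia lists was 2.47 times that of normoxia, a log2 difference of 1.31 with a range from 0.67 (6 h) to 1.62 over the lists.

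A region 42.1 kb before the start (chr2:84358448-84359512), in an intron of the noncoding gene Gm13710, had a peak in all 7 lists as well. Its heights were 3.63, 5.43, 7.65, 7.23, 6.73, 6.88 and 5.56 in the order of the lists, from normoxia to 72 h. Normoxia was the lowest and the 6 hypoxia lists lay close together once scaled, with log2 differences from 0.86 to 1.07 and a mean of 0.95. The normoxia peak rested on 6 reads (exact interval 2.20 to 13.1), against 23 to 40 in the hypoxia lists. The ratio of reads to normoxia, scaled for depth, ran from 2.49 (0.99 to 7.48) at 24 h to 3.44 (1.39 to 10.2) at 36 h.

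The Tfpi region that was strongest at 72 h lay 34.9 kb before the start (chr2:84351248-84352228), also in an intron of Gm13710. It had no peak in normoxia or at 6 h, and heights of 7.18, 8.43, 4.66, 8.92 and 11.1 from 12 to 72 h. The -log10 q was 13.6, 15.7, 5.60, 21.3 and 38.1 in these lists, so that 36 h was the weakest and 72 h the strongest list. It rested on 23, 23, 14, 32 and 53 reads. At the depth of normoxia, by median summit reads, these correspond to 11.5, 15.0, 10.7, 18.1 and 39.4 reads. The weakest call of the whole normoxia list had 5 reads. Over the 33 window regions without a normoxia peak, the strongest list corresponded to a median of 8 reads. The part of depth in the missing peaks was not tested.

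The sequence within 100 bp of the strongest summit is shown for these 3 Tfpi regions because 2 of them had the mean heights farthest above normoxia and the other was the strongest Tfpi region at 72 h (mm9, plus strand). Capitals mark matches to any of 10 fixed motifs, on either strand. The stretches are chr2:84351744-84351944, chr2:84305201-84305401 and chr2:84358962-84359162, in the order printed.
Tfpi -34.9 kb: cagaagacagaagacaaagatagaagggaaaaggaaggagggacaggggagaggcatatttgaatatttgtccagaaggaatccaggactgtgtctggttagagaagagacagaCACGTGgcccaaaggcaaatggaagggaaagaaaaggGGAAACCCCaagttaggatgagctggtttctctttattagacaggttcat
Tfpi +11.6 kb: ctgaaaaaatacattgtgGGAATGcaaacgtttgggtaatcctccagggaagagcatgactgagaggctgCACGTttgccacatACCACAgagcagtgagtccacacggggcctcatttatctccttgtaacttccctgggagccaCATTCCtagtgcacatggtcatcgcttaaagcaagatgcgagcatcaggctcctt
Tfpi -42.1 kb: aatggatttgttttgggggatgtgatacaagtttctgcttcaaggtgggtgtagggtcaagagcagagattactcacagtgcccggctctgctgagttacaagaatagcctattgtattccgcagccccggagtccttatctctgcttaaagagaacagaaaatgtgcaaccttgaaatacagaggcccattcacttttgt

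In the first, the capitals are a palindrome that holds the HIF core (ACGTG or GCGTG) on both strands and a match to the NF-kB letters GGGNNTTCC. In the second they are a HIF core, a pair of TEAD motifs (GGAATG) and a RUNX motif (TGTGGT), and in the last none of the 10 motifs occurred. The HIF core lay near the summit in 7 of the 19 Tfpi regions and in 22 of all 84 (26.2%), against 23.6% of all regions. The NF-kB letters occurred in 1 of the 84, against 3.51% of all regions. The AP-1 motif TGACTCA was found in 1 of 19 Tfpi regions and in 20 of the other 65, and in 31.2% of all regions. A match is a description of letters and not evidence of binding.

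Further regions that normoxia lacked lay around the same gene. Those 16.9 and 27.8 kb before the start (chr2:84333624-84334466 and chr2:84344470-84344973) shared the pattern of the 34.9 kb region, with a peak in each list from 12 to 72 h and none before. Heights were 6.80, 6.29, 4.04, 7.10 and 2.84 at the former and 5.39, 4.57, 4.97, 4.26 and 3.98 at the latter. In scaled height the former was lowest at 72 h, where the region 34.9 kb upstream was highest, and the latter was lowest at 48 h. With a region 3.0 kb before Plat they make 4 of 84 with this pattern, 4.76% (interval 1.31 to 11.7), against 2.1% of all regions. The pattern was picked after its values were seen.

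**Figure D2:**
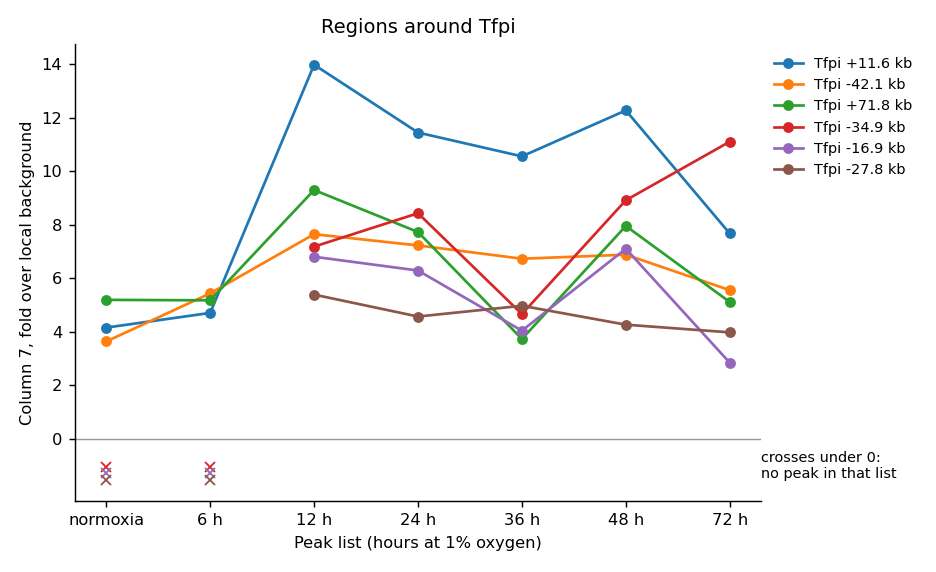
Height (column 7, fold over local background, y axis) of 6 Tfpi regions in the 7 lists (x axis), with crosses under 0 where a list had no peak. The 11.6 kb region goes from 4.15 in normoxia to 13.99 at 12 h, and the region 34.9 kb upstream is absent at normoxia and 6 h and reaches 11.1 at 72 h.

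The promoter of Tfpi, taken as 1 kb on either side of any of its 10 annotated starts, had a peak at 12 h (height 4.49, 14 reads) and at 24 h (3.16, 8 reads) and in no other list. That peak (chr2:84314653-84315172) lay in an intron near an internal start, 2.0 kb after the first. Inside the gene, the region 21.3 kb after the start had heights of 4.67 in normoxia and 5.39, 3.87, 3.42, 4.83 and 4.30 from 12 to 72 h, with no peak at 6 h. On the far side of the gene lies Calcrl, which encodes a receptor for calcitonin gene-related peptides and adrenomedullin. Its promoter (chr2:84265122-84265781) falls in the window and had heights of 4.15 in normoxia and 6.91, 5.62, 5.95, 6.93 and 5.68 from 12 to 72 h, again with no peak at 6 h. A region in a Calcrl intron, 71.8 kb from the Tfpi start, had 5.19, 5.17, 9.30, 7.73, 3.73, 7.96 and 5.11, a mean log2 difference of 0.36. Another, 66.4 kb from the start (chr2:84250127-84250775), had no normoxia peak and heights of 4.83, 2.80, 4.30 and 5.40 at 12, 36, 48 and 72 h. Which gene these regions act on was not measured.

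F3, on chromosome 3 (121426455 to 121437970), encodes tissue factor. Its promoter (chr3:121425803-121426916) was open in every list, with heights of 10.5, 6.46, 8.68, 9.49, 8.29, 9.06 and 8.27 from normoxia to 72 h. Normoxia was highest and 6 h lowest before scaling. After scaling every hypoxia list was slightly lower than normoxia, with log2 differences from -0.41 to -0.10 and a mean of -0.23.

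Upstream of F3, regions at 48.1, 36.7, 26.2 and 11.4 kb before the start had peaks in all 7 lists. The strongest, 48.1 kb before (chr3:121378044-121378744, in an intron of 4930432M17Rik), had heights of 10.5, 8.82, 11.02, 13.4, 10.4, 8.86 and 7.89, a mean log2 difference of 0.02. The region 26.2 kb before (chr3:121399771-121400668) had 9.41, 7.50, 10.3, 9.95, 7.84, 11.6 and 9.73, a mean of 0.10. By scaled height both had lists on either side of normoxia. By reads scaled on the lists' median reads all 6 ratios were above 1 at both. They ran from 1.01 (0.64 to 1.60) at 72 h to 1.54 (1.01 to 2.38) at 6 h for the former. For the latter they ran from 1.19 (0.64 to 2.28) at 36 h to 2.06 (1.18 to 3.76) at 72 h. Scaling by the background of each list would lower each of them.

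The region 11.4 kb before the start (chr3:121414763-121415504) had heights of 5.05, 2.90, 7.69, 6.32, 6.48, 7.82 and 7.96. In scaled height it was below normoxia at 6 h and above it at all later times, with a mean log2 difference of 0.41 and 0.91 at 72 h. Its reads went from 9 in normoxia to 31 at 72 h, a depth-scaled ratio of 2.56 (exact interval 1.19 to 6.11). At the 5 other times the ratio was 1.21 to 1.70. The stretch chr3:121414936-121415136 is shown because it carries an AP-1 motif, in capitals, like 4 of the 10 F3 regions.
F3 -11.4 kb: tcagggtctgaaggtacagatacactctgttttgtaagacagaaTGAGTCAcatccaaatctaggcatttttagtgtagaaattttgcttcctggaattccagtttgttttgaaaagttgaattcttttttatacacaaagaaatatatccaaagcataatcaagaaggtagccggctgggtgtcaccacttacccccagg

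Thbs1 (chromosome 2, 117937612 to 117952869) had 2 promoter regions with peaks in all lists. The one 0.5 kb before the start had heights of 3.70, 5.08, 3.39, 4.57, 3.55, 4.10 and 3.72, and the one 1.5 kb before had 5.71, 4.86, 5.38, 5.79, 5.12, 5.64 and 6.26. The mean log2 differences were 0.23 and 0.05. Regions 32.5 kb before and 38.1 kb after the start also had a peak in every list, both with a mean log2 difference of 0.17. The former had heights of 8.76, 4.34, 13.2, 8.08, 9.01, 12.5 and 11.1, and the latter of 6.75, 4.47, 8.08, 8.78, 5.59, 9.95 and 6.82.

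The region 9.5 kb before Thbs1 (chr2:117927795-117928430), in an exon of the noncoding gene Gm13986, was the only one of the 38 whose mean height was more than 1.5-fold below normoxia. Its heights were 10.9 in normoxia and 5.17, 10.2, 8.43, 7.14, 7.10 and 3.98 from 6 to 72 h. Every hypoxia list was lower after scaling, from -0.23 to -1.20 on the log2 scale, with a mean of -0.60, and 72 h was lowest. The reads were 20 in normoxia and 13 at 72 h, a depth-scaled ratio of 0.48 (0.22 to 1.02). At the 5 other times it was 0.68 to 0.88. Without the 72 h list the mean was -0.47, short of 1.5-fold. The summit stretch chr2:117928042-117928242 holds a TEAD, a RUNX and a C/EBP (TTGCNNAA) match, shown in capitals.
Thbs1 -9.5 kb: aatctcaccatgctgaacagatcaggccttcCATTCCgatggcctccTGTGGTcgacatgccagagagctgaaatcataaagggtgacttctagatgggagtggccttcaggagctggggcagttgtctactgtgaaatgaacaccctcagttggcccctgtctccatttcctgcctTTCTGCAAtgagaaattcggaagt

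Plau (chromosome 14, 21655884 to 21662610) had the densest set of the 6 genes, with 17.8 regions per 100 kb of window, against a median of 5.81 over 22367 protein-coding genes (quartiles 2.99 and 8.78). The other 5 windows held 8.68 to 13.2. The Plau promoter (chr14:21655652-21656140) had heights of 6.67, 4.53, 4.82, 5.60, 5.84, 3.81 and 4.46. Normoxia was highest, and after scaling all hypoxia lists were below it, with a mean log2 difference of -0.37 and the lowest value, -0.82, at 48 h. The region 5.3 kb before the start had a mean of -0.34 but was above normoxia at 36 h, where its height was 5.69 against 4.89.

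The highest peak of all 84 regions lay 55.4 kb after the Plau start (chr14:21710883-21711809), nearest to the start of Vcl. Its heights were 12.6, 4.94, 17.2, 11.5, 8.70, 15.0 and 10.2. The 12 and 48 h lists were high and 6 h was low, with log2 differences on both sides of normoxia (-0.86 to 0.32). Regions 45.1 kb (chr14:21610376-21611168) and 17.6 kb (chr14:21637891-21638904) before the start had 8.81, 5.64, 8.79, 9.36, 7.0, 7.14 and 5.96 and 9.86, 6.35, 12.98, 11.5, 10.6, 9.66 and 6.53. Their means were -0.18 and 0.02. The promoter of Camk2g, a calcium-dependent kinase gene, lies 42.6 kb before Plau and had a mean of 0.41, with heights of 4.46, 3.49, 5.89, 6.06, 6.19, 5.61 and 6.48. The stretch around the 55.4 kb summit, chr14:21711193-21711393, is shown as that of the highest peak, and it holds none of the 10 motifs.
Plau +55.4 kb: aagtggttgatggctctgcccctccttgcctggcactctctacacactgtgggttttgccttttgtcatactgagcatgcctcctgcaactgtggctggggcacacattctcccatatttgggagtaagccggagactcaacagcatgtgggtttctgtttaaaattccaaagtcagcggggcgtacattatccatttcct

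Plat (chromosome 8, 23868216 to 23893319), the gene of the tissue activator, had the tallest promoter of the 6. The region chr8:23867605-23868361 had heights of 12.1 in normoxia and 8.97, 8.45, 9.27, 8.53, 10.3 and 8.54 from 6 to 72 h. Normoxia was highest, and the scaled mean was -0.32, with a range of -0.65 to 0.05. Over the promoters of all protein-coding genes, 10337 promoter regions with a peak in all 7 lists had a median of -0.04, and the other 25776 regions of all 7 lists had a median of -0.002.

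Inside Plat, 6.5 kb after the start (chr8:23874473-23875585), heights were 9.13, 6.76, 7.56, 8.99, 5.42, 7.08 and 4.41. The 72 h list was lowest, at a log2 difference of -0.80, and the mean was -0.38. The 28 reads at 72 h, against 56 in normoxia, gave a depth-scaled ratio of 0.37 (0.23 to 0.59). The ratio was 0.57 (0.38 to 0.87) at 36 h, 0.69 (0.47 to 0.996) at 48 h and 0.78 to 0.93 at the other times. A neighbour in the same gene, 8.1 kb after the start, had heights of 3.89 in normoxia and 5.88 at 72 h, with a read ratio of 1.25 (0.72 to 2.22). The intronic region 1.4 kb after the start had heights of 4.58, 3.47, 4.89, 5.02, 5.26, 3.89 and 4.31, a mean of 0.06.

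A region 3.0 kb before Plat (chr8:23865015-23865445) had no peak in normoxia or at 6 h and heights of 4.42, 4.08, 3.30, 3.36 and 3.77 from 12 to 72 h. Its -log10 q was 12.2, 8.49, 4.45, 5.98 and 7.74. The reads, 37, 28, 20, 26 and 29, correspond to 14.7 to 21.5 at the depth of normoxia. Here the local background was higher than at the Tfpi region 34.9 kb upstream, where fewer reads at 12 and 24 h gave greater heights. The summit stretches of the 3.0 kb (chr8:23865095-23865295) and 6.5 kb (chr8:23874632-23874832) regions are shown side by side because these differed from normoxia in opposite ways, the first with an AP-1 motif and an NFY motif (CCAAT), the second with a RUNX motif.
Plat -3.0 kb: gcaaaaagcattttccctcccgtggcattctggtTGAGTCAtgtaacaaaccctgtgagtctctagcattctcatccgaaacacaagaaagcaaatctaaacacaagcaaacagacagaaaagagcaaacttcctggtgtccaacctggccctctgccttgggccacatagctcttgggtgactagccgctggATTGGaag
Plat +6.5 kb: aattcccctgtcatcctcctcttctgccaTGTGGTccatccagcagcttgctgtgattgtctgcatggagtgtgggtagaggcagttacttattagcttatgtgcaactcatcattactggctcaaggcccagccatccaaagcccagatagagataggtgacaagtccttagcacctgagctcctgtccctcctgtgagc

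At the far end of the Plat window, 48.0 kb after the start, lies the promoter of Ap3m2, a subunit gene of a vesicle coat adaptor. It had heights of 8.79, 7.43, 7.33, 8.72, 8.67, 8.01 and 7.64, a mean log2 difference of -0.04.

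Plaur (chromosome 7, 25247519 to 25260892), the urokinase receptor gene, had the narrowest range of mean log2 differences, from -0.18 to 0.32 over 8 regions. Its strongest region, also the strongest of all 84 by -log10 q (73.2 at 12 h), lay in an intron 8.1 kb after the start (chr7:25255171-25255969). The heights were 12.3, 8.33, 12.997, 13.3, 13.2, 12.8 and 11.6, with log2 differences of -0.08 to 0.23 and a mean of 0.06. Only 6 h was clearly lower before scaling. The summit stretch, chr7:25255480-25255680, holds an AP-1 motif, in capitals.
Plaur +8.1 kb: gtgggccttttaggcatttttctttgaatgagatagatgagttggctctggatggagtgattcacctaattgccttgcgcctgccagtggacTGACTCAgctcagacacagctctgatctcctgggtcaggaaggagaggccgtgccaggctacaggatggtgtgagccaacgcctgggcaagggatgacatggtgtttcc

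The Plaur promoter region centred 1.0 kb before the start (chr7:25246319-25247098) had heights of 5.37, 5.13, 5.45, 5.60, 5.32, 4.52 and 4.10, a mean of 0.00. A second promoter region over the start itself (chr7:25247285-25247755) was low, with heights of 2.20, 2.57, 1.93, 2.74 and 2.44 in normoxia and at 12, 24, 36 and 48 h, and no peak at 6 or 72 h. Regions 13.2 kb and 2.5 kb before the start had means of -0.07 and -0.08. Their heights ran from 8.81 to 10.7 and from 4.56 to 5.79.

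**Figure D3:**
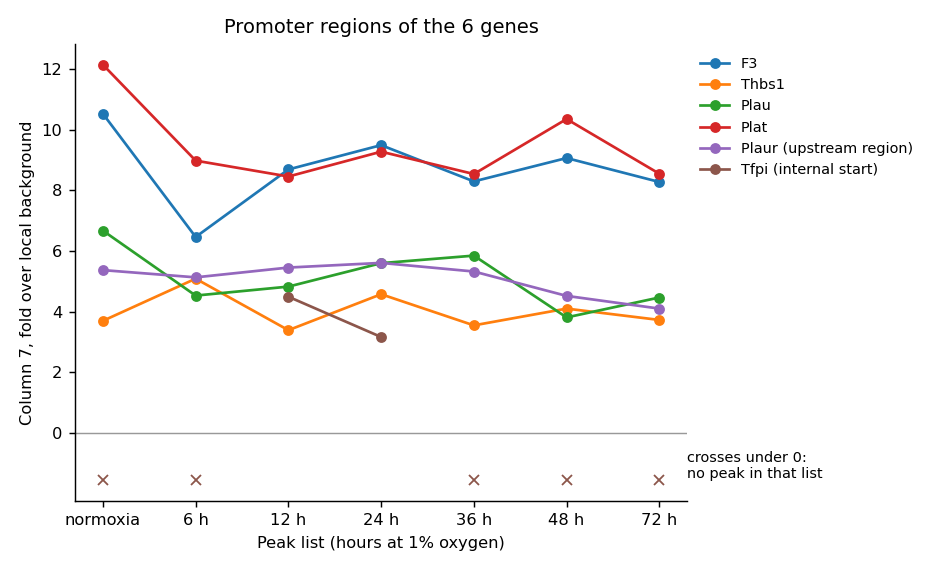
Height (column 7, fold over local background, y axis) of 1 promoter region per gene in the 7 lists (x axis), with crosses under 0 where a list had no peak. F3 and Plat are tallest and highest in normoxia (10.5 and 12.1), and Tfpi has a peak at 12 and 24 h only.

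Over the 38 regions with a peak in every list, the median of the mean log2 difference was 0.05, against -0.01 over all 36113 such regions. Of the 38, 25 were above 0: 6 of 11 promoter regions of any gene and 19 of 27 others. Over all such regions, 4428 of 10337 promoter regions and 12825 of 25776 others were above 0. Mean heights more than 1.5-fold above normoxia were found in 2 of 38 (5.26%, interval 0.644 to 17.7), both at Tfpi, against 3.97% of all such regions. Heights more than 1.5-fold below were found in 1 of 38 (2.63%), at Thbs1, against 1.83%. Both shares of the 6 genes lay near those of all regions. The median of the 35 regions outside the Tfpi window was 0.04.

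**Figure D4:**
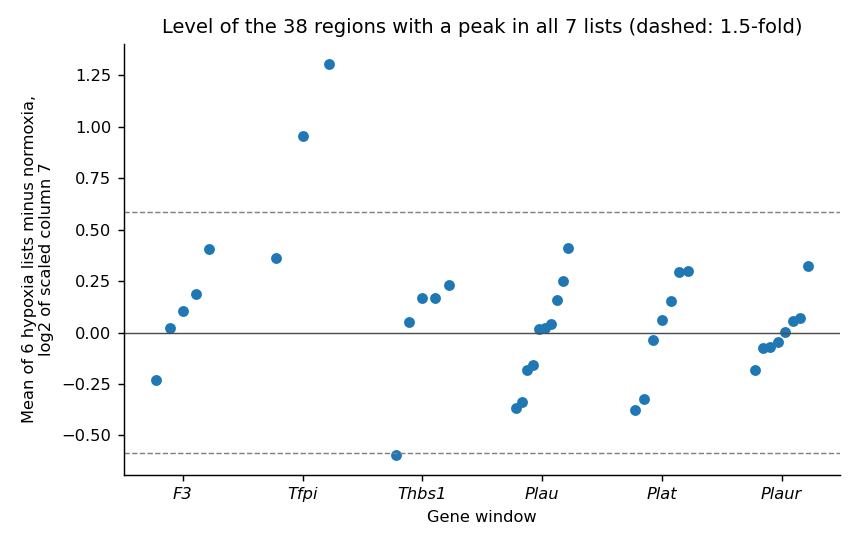
Mean of the 6 hypoxia lists minus normoxia (y axis, log2 of scaled height) for the 38 regions with a peak in all 7 lists, by gene window (x axis), with dashed lines at 1.5-fold. The points of F3, Plau, Plat and Plaur lie inside the lines, 2 Tfpi points lie above (1.31 and 0.95) and 1 Thbs1 point just below (-0.60).

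By presence, the share of window regions without a normoxia peak was below that of all regions at every time. The 6 genes were chosen from the presence of peaks in these lists, so the difference was not tested. Such regions made up 3 of 41 at 6 h (7.32%, against 13.7% of all regions), 21 of 72 at 12 h (29.2% against 34.3%) and 14 of 62 at 24 h (22.6% against 28.5%). At 36 h they were 10 of 55 (18.2% against 23.7%), at 48 h 18 of 67 (26.9% against 30.3%) and at 72 h 10 of 56 (17.9% against 27.6%). Of the 18 such regions at 48 h 8 were at Tfpi, and of the 10 at 72 h 5 were.

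Of the 51 window regions with a normoxia peak, 13 were missing at 6 h (25.5%, against 30.0% of all normoxia regions), 0 at 12 h (against 8.98%) and 3 at 24 h (5.88% against 13.9%). At 36 h 6 were missing (11.8% against 20.3%), at 48 h 2 (3.92% against 13%) and at 72 h 5 (9.80% against 22.7%). The 0 of 51 at 12 h has an exact upper limit of 6.98%. The 6 h list had the fewest peaks, 49006, and the highest background, and the 12 h list had the most peaks, 81732, so that the counts of missing regions have the reverse order of the sizes of the lists. The part of list size in them was not tested. The regions missing at 72 h lay at Thbs1 (1), Plau (1), Plat (1) and Plaur (2).

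**Figure D5:**
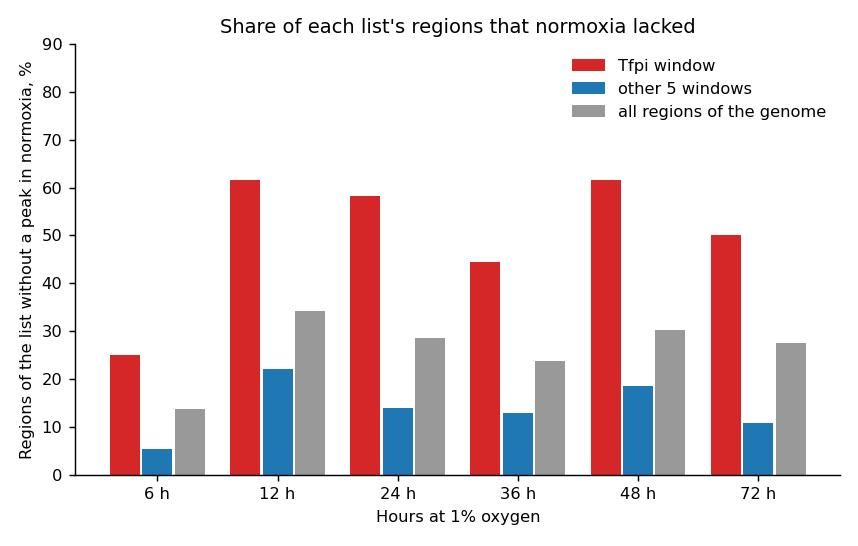
Share of the regions of each hypoxia list that had no peak in normoxia (y axis, %) by hours at 1% oxygen (x axis), for the Tfpi window (red), the other 5 windows together (blue) and all regions (grey). Bars have no error because each list is a pool. The Tfpi bars are the tallest at each time, from 25.0% at 6 h to 61.5% at 12 and 48 h, on 4 to 13 regions.

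By position, 50 of the 84 regions were intergenic and 9 lay in an intron of a member gene. The member's own start was the nearest protein-coding start for 53 regions, 8 were promoter regions of a member and 8 lay within 1 kb of the start of another gene. Of the promoter regions of the members 6 of 8 had a peak in all lists, against 65.6% of all promoter regions, and of the remaining window regions 32 of 76 (42.1%), against 27.7% of all other regions. The nearest regions on either side of the 50 kb limit, over all 6 genes, were 49464 bp from the Tfpi gene body (peaks in 2 lists, highest -log10 q 3.80) and 50639 bp from F3 (peaks in all 7 lists, highest -log10 q 25.5).

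Of the promoters of 41 other genes of these pathways, in 6 groups, 13 had a peak in all 7 lists and 20 in none. Another 6 had one only in hypoxia lists, and 2 in normoxia but not in every hypoxia list. Over all 22380 protein-coding genes the shares of these classes were 46.6%, 42.4%, 6.62% and 4.44%, and those of the 41 were 31.7%, 48.8%, 14.6% and 4.88%. Among 13 genes of clotting factors, which are mostly liver products, 11 had no promoter peak in any list, F8 had one in all 7 and Vwf, the carrier of factor VIII, lacked one at 24 h. Of 7 inhibitors and regulators of clotting, Procr, the protein C receptor, was in all lists and Thbd, thrombomodulin, was missing at 6 and 24 h. Pros1, the cofactor of protein C, had no peak in normoxia or at 6 h and heights of 5.33, 6.38, 5.73, 5.14 and 4.11 from 12 to 72 h. Proc, protein C itself, showed the same presence with heights of 4.19, 5.62, 4.01, 4.83 and 3.41. Tfpi2, Serpinc1 and Serpind1 had none.

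On the plasmin side, 5 of 6 partners of plasminogen had a promoter peak in all 7 lists: Anxa2 and S100a10, which form a plasminogen-binding complex at the cell surface, and Lrp1, Itgb1 and the plasminogen receptor gene Plgrkt. Plg itself, made by the liver, had none. Of 6 inhibitors, Serpinb2, which inhibits urokinase, had heights of 9.70, 6.14, 9.36, 7.86, 8.63, 8.44 and 7.26. Serpine2, an inhibitor of thrombin and of the activators, had no peak in normoxia or at 72 h and heights of 3.23, 4.63, 4.67, 3.37 and 4.10 from 6 to 48 h. Of 4 thrombin and protease receptor genes, F2r and F2rl1 were in all lists, F2rl2 had a peak at 12 and 72 h only and F2rl3 had none. Thbs3 and the thrombospondin receptor Cd47 were in all lists.

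The other motifs near the summits of the 84 regions were AP-1 (TGACTCA, 25.0% against 31.2% of all regions), RUNX (21.4% against 20.7%), TEAD (15.5% against 16.5%), NFY (15.5% against 25.1%), SP/KLF (GGGCGG, 13.1% against 11.3%), C/EBP (10.7% against 8.73%), NFI (TTGGCA, 10.7% against 15.0%) and ETS (CCGGAAG, 0 against 2.75%). Both strands were searched, up to 100 bp from the summit, and letters shared by overlapping matches, as NFY and NFI can have, counted for both.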

How the data were processed

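Bulk ATAC-seq libraries of 14 samples were grouped by their labels into normoxia and 6 lengths of hypoxia, 2 samples each. The authors' methods and the submitters' processing notes give alignment of paired reads to mm9 by Bowtie2 2.1.0 and removal of mitochondrial reads and, by Picard 1.79, of duplicates. Replicates were then merged, and MACS2 (version not given in the sources used here) called narrow peaks on the merged reads. In the deposited lists, column 7 is a fold, the ratio of summit reads to local background, column 8 is the authors' -log10 p, column 9 a score that MACS2 wrote as -log10 q, and the last is the distance of the summit from the peak start. The lowest deposited -log10 q was 1.30 to 1.31, the level of a q of 0.05, which is looser than the threshold named in the methods. The display values of column 5 and the peak names were not used, and 0 columns of single samples were left aside.

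A peak was a unique interval with its strongest summit, and overlapping or touching peaks of the 7 lists formed regions. Depth is given by the reads at each summit: all 515936 summits had a whole number of reads and a background that together give back column 7 and the deposited -log10 p. Promoters were 1 kb on either side of any annotated start. Gene positions were taken from the GENCODE annotation of NCBIM37 (the mm9 assembly), as was the sequence. Distances are from the first annotated start to the summit of the strongest list. Shares have exact Clopper-Pearson and reads exact Poisson 95% intervals, which cover counting error only. Ratios of reads were divided by the ratio of the lists' median reads over regions of all 7 lists, with exact binomial intervals. No test was possible with 1 list per group.

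The 6 genes, the gene lists and the motifs were chosen with earlier results of these data known. Regions named were the promoter regions, the 3 strongest other regions of each gene by -log10 q, those called at 72 h and not in normoxia with a -log10 q of 5 or more at 72 h, and the 5 highest and 5 lowest mean scaled heights among regions of all lists. Further regions were named after their values were seen. Alternatives were -log10 q of 2 and 5, the 20000 strongest peaks, merging within 200 bp, summits within 250 bp, windows of 10 and 100 kb, nearest starts, a promoter of 5 kb, other scalings of column 7 and leaving out each hypoxia list. The region, read and motif steps were checked on simulated data. The tools were Python 3.11.15 with matplotlib 3.10.9, pysam 0.24.0, scipy 1.17.1, pandas 2.3.3 and numpy 2.4.6. Some results on single genes are not reported here.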

Additional observations from a re-analysis of the deposited data

How the results depend on the processing

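Of 234 values of shares under other settings, 214 lay within the exact interval of the reported share. Leaving out 1 hypoxia list could not change the shares of the other single lists against normoxia. The other settings drew on overlapping sets of regions, so this count is no measure of stability. The shares of all regions were not computed under these settings. The window shares below therefore cannot be set against the shares of all regions given above. With a -log10 q of 5 or more, regions without a normoxia peak made up 42.1, 31.1 and 41.1% of those at 12, 36 and 48 h, and 0 of 26 regions of all lists were over 1.5-fold higher or lower. Among the 20000 strongest peaks of every list, 33.3% of 27 regions were in all lists, 36.8% at 72 h had no normoxia peak, the share of 16 normoxia regions that was missing was 18.8% at 12 and 24 h and 25.0% at 36, 48 and 72 h, and 0 were over 1.5-fold higher or lower. With a window of 10 kb, 8.33% of the regions at 36 h had no normoxia peak. When each hypoxia list was left out in turn, the share in all remaining hypoxia lists and not in normoxia ranged from 0 to 4.76%, reached without the 6 h list, and the share over 1.5-fold lower from 0, without the 72 h list, to 2.63%.

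Summit reads over genome background put the median log2 difference of all regions of 7 lists at -0.84, against -0.01 as reported, and 60.5% of the window regions were then over 1.5-fold lower. With column 7 as deposited that median was -0.12. The number of members with a promoter peak in all lists was 3 among the 20000 strongest peaks and 6 with a promoter of 5 kb. With the mean of column 7 over summits, and with summit reads over their list median, a setting added after the data were seen, 0 regions were over 1.5-fold lower. The Thbs1 region 9.5 kb upstream had -0.58 and -0.46 there. The Tfpi regions 11.6 kb downstream and 42.1 kb upstream kept mean log2 differences of 1.01 to 1.81 and 0.79 to 1.66 wherever they had a peak in all lists, which they lacked at a -log10 q of 5 and among the 20000 strongest peaks. Of 336 counts per gene and single-region values, 51 moved, mostly counts of regions under other windows or thresholds.

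No paired analysis was possible because the replicates of each group were merged before peaks were called, which also leaves no single replicate to omit. Summit reads of 6 and 7 in normoxia set how well the Tfpi differences are known.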

Other observations

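The promoters of Thbs1, Plau, Plat and Plaur were set beside those of 10422 to 10425 other protein-coding genes with a promoter peak in all 7 lists, by the root mean square difference of their log2 heights over the 7 lists, divided by each list's median over these promoters and centred. The nearest were Rlim, Lnx2 and Polr1d for Thbs1, Zfp637, Lsm11 and Rab31 for Plau, Ivns1abp, Nucks1 and Yy1 for Plat, and Shroom2, Utp3 and Rab3gap2 for Plaur. The nearest gene lay at 0.04 (Thbs1) to 0.07 (Plau), where the median over all genes compared was 0.22 and 0.28. The nearest is the smallest of all these distances, so it lies below the median by construction and is no measure of likeness. Lnx2 and Polr1d share a promoter region. On that scaling, which differs from the one over all regions, the promoter height of F3 spanned 0.31 on the log2 scale and that of Plau 0.73, against a median of 0.50 over 10426 genes.

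The Plaur region 60.5 kb after the start was highest in normoxia, with a height of 8.83, and had 4.49 and 4.26 at 12 and 48 h, while the other lists held no peak there. The Plat region 12.5 kb before the start had heights of 4.67, 3.70, 3.41, 5.27, 4.66, 5.68 and 7.14 from normoxia to 72 h and was highest at 72 h, on 25 reads.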
